A study of Homo sapiens with 6 samples.

Results

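Keratins and desmosome genes were followed through clones of KGN, a cell line from a human ovarian granulosa cell tumour. The set holds 10 genes of the 58336 in the tables: the keratins KRT5, KRT7, KRT8, KRT14, KRT18 and KRT19, and the desmosome genes DSG2, DSC2, DSP and PKP2. They were chosen by their expected counts and TPM (a level scaled by transcript length to a common sum per library) in each clone, by genotype and by clone name. Differences of these 10 genes between genotypes or between clones are therefore given as a description, with no test.

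Each library came from KGN cells in culture, with RNA taken 30 h after a transfection whose content the labels do not give. In the FOXL2 WT/WT libraries CRISPR/Cas9 had reverted the C134W mutation of FOXL2, a forkhead transcription factor of granulosa cells. The FOXL2 WT/C134W libraries carry the mutation, and no editing step is recorded for them, so genotype and editing cannot be told apart. The WT/WT libraries are named 44a, 4.72 and 4.72-44a, and the WT/C134W libraries 3.11, 44b and 3.11-44b. The names 4.72-44a and 3.11-44b are made of clone names, and what they hold is not stated, so comparisons rest on the 4 libraries that name 1 clone each. These were also compared as 44a and 44b, whose names share a stem, against 4.72 and 3.11. With 2 clones a side and no statement of separate cultures, the spread is that between these libraries, which may be technical. The smallest 2-sided exact permutation p for 2 against 2 is 0.333, so nothing is read from groups that do not overlap. Totals were 35332727 to 46613068 expected counts per library. By these totals alone, 3 counts equalled 0.0644 to 0.0849 CPM (counts scaled to a common library size), for counting error only.

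The granulosa label was checked against 16 markers of that cell type. Of these, 9 had a mean of at least 1 TPM over the 4 single clones, among them NR5A1 at 21.2 to 26.7 TPM, AMH at 18 to 44.4 TPM and FOXL2 at 2.36 to 5.48 TPM. FSHR, AMHR2, WT1 and GATA4 had no counts in any library. Of 12 epithelial markers 1, MUC1, reached a mean of 1 TPM, and the summed level of the list was 2.94 to 4.15 TPM in the 4 single clones. EPCAM had 24 counts in 3.11, 2 in 44b and 0 in the other 4 libraries, and CDH1 had at most 11 counts in any library. Of 8 mesothelial and ovarian surface markers 2 reached 1 TPM, with LHX9, which gonadal cells also express, at 11.8 to 22.2 TPM. MSLN had 24 counts in 44b, 7 in 3.11-44b and 0 elsewhere. Fibroblast markers, all 9 detected, summed to 15096 TPM in 44a, 13166 in 4.72, 8420 in 3.11 and 7192 in 44b. Their part in the results was not tested.

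Keratins build the intermediate filaments of epithelial cells. A filament needs a type I and a type II keratin in pairs: KRT8 (type II) with KRT18 (type I) in simple epithelia, with KRT7 and KRT19 beside them, and KRT5 (type II) with KRT14 (type I) in the basal layer of stratified epithelia. Desmosomes are the junctions to which these filaments are tied. Their cadherins, desmogleins and desmocollins, bridge neighbouring cells, plakoglobin and plakophilins bind the cadherin tails, and desmoplakin links that plaque to the keratins. Granulosa cells are known to express simple keratins and to form desmosome-like junctions.

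Promoters are shown for DSG2 and DSP, which had counts, and for DSC2, which had none, as a description of these genes. The RefSeq table of starts (GRCh38.p14) held 5 of the 10 genes, KRT5, KRT8, DSG2, DSC2 and DSP. Below are the 250 bases before the RefSeq start of DSG2 (chr18:31497927-31498176, plus strand), DSC2 (chr18:31102422-31102671, minus strand, 1 of 2 listed starts) and DSP (chr6:7541421-7541670, plus strand), read 5′ to 3′ along the gene. GENCODE, used for gene positions here, begins DSG2 at 31498043, DSP at 7541575 and DSC2, on the minus strand, at 31102522. These points lie inside the windows, so part of each printed stretch is within the gene as GENCODE annotates it. Capitals mark CACCTG or its reverse complement CAGGTG, the letters of an E-box that SNAI and ZEB repressors can bind.
DSG2: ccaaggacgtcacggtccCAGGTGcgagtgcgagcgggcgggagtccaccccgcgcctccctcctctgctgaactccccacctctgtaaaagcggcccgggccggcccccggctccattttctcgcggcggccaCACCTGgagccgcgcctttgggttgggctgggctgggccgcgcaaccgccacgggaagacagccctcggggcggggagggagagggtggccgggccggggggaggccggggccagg
DSC2: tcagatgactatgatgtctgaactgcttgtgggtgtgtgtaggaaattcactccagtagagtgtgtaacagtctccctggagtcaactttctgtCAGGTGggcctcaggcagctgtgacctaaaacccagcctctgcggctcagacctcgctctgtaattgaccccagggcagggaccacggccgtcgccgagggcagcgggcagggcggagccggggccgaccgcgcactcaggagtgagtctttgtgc
DSP: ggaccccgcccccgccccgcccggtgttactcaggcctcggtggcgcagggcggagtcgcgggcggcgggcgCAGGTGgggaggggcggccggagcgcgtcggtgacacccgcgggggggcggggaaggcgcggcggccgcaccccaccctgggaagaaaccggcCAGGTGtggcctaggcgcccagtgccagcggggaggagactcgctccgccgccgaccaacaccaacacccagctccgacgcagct

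Both DSG2 and DSP held 2 of these E-boxes and DSC2 held 1, and 17.5% of all 35116 listed promoters hold at least 1 in the same window. The CG dinucleotide occurred 26 times in DSG2, 33 times in DSP and 12 times in DSC2, against a median of 11 over all promoters. A GC box, GGGCGG on either strand, occurred 2, 7 and 1 times, and 42.6% of promoters hold it. At the second listed start of DSC2 the counts were 19 CG dinucleotides, 2 GC boxes and 0 of these E-boxes, so the DSC2 values depend on the start taken. KRT8, which had counts in every library, held 1 CG dinucleotide, 0 GC boxes and 0 of these E-boxes. For KRT5, with at most 5 counts, the same numbers were 6, 0 and 1. Both windows lie inside the gene as GENCODE annotates it. Any link of these letters to expression was not tested. A forkhead core, GTAAACA on either strand, was in 2.98% of promoters and, of these genes, only at the second listed start of DSC2. Of the 5 genes, none held the TATA box searched as TATAAA on both strands, found in 10.7% of all promoters. None held the AP-1 site searched as TGANTCA, found in 6.57%, or the grainyhead site searched on both strands as AACCNGTT, found in 1.49%. A match is a run of letters, not a measured binding site.

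Among the simple keratins KRT18 was the most abundant transcript by length-scaled level, and KRT8, its usual partner, stood far below it. KRT18 (ENSG00000111057, chromosome 12, 52948871 to 52952901, plus strand, GRCh38) had 1027 TPM in 44a, 1457 in 4.72, 379 in 3.11 and 1343 in 44b. The library 3.11 stood apart and low, and the other 3 clones of both genotypes lay above it. In KRT18 the difference between clones had opposite signs in the 2 genotypes: 44a was at 0.693 times the normalised count (CPM after TMM scaling) of 4.72, while 44b was at 3.67 times that of 3.11. Between genotypes the log2 fold change of KRT18, with WT/WT as the base, was -0.69 ± 0.66 (SE, n = 2 clones a side). For log2 fold changes, here and below, ± is an SE derived from the F statistic of edgeR's test.

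KRT8 (ENSG00000170421, chromosome 12, 52897187 to 52949954, minus strand) was nearly level, at 67.7 TPM in 44a, 62.7 in 4.72, 67.7 in 3.11 and 67.9 in 44b. In TPM the groups met at 67.7 by either grouping, while in CPM 44a and 44b, at 64.2 and 60.7, lay just above 4.72 and 3.11, at 59.9 and 54.8. The log2 fold changes were -0.10 ± 0.15 between genotypes and 0.12 ± 0.17 for 44a and 44b over 4.72 and 3.11. The sign between genotypes turned in 4 of 15 alternatives, to 0.12 with library totals as the scaling and to 0.06 in each of the 3 fits on TPM. The ratio of KRT18 to KRT8 in TPM was 15.2 in 44a, 23.2 in 4.72, 5.6 in 3.11 and 19.8 in 44b, so it followed KRT18. The KRT8 and KRT18 loci share 1084 bases on opposite strands, and the strand setting of the counting is not given in the sources used here. Both genes also have processed copies in the annotation, 50 for KRT8 and 67 for KRT18. Copies held 10.1% to 15.8% of the summed counts of KRT8 and its copies over the 6 libraries, and 0.358% to 0.588% for KRT18. Adding them left the ratios between clones of both genes within 1.5 times their values.

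KRT7 (ENSG00000135480, chromosome 12, 52232520 to 52252186, plus strand), a type II keratin of glandular epithelia and mesothelium, was higher in 44a and 44b. It had 118 TPM in 44a and 79.2 in 44b, against 66.5 in 4.72 and 52.1 in 3.11, and 98.6 ± 27.5 against 59.3 ± 10.2 TPM by clone pair (mean ± SD, n = 2). On the TPM scale the pairs did not overlap, whereas the genotypes did, at 92.3 ± 36.4 TPM in WT/WT and 65.6 ± 19.2 in WT/C134W. The size of the difference depended on the scale. In CPM, 44b stood 2.68 times above 3.11 and 44a 2.6 times above 4.72, and in TPM 1.52 and 1.77 times.

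The CPM and TPM ratios of KRT7 differed by factors of 1.47 within WT/WT and 1.76 within WT/C134W. RSEM reports a mean transcript length weighted by abundance, and for KRT7 it was 1021 bases in 44a and 1079 in 44b, against 738 in 4.72 and 708 in 3.11. In 4.72 and 3.11 this mean lay below the 816 bases of the longest noncoding KRT7 transcript, while the longest coding one has 1754 bases. Joined libraries lay between, at 912 and 956 bases. This length links counts to TPM, the values that chose the genes, so it too is a description, with no test. Over the 4 single clones the same mean ran from 1423 to 1497 bases for KRT8, 1463 to 1476 for KRT18, 9546 to 9674 for DSP and 3146 to 3534 for PKP2. For KRT14 it ran from 1268 bases in 44b to 1646 in 3.11, where it rests on 94 counts. For KRT19 it was 1322 in 4.72, 1390 in 3.11 and 868 in 44b, the last on 2 counts. The antisense gene KRT7-AS lies within this locus and the KRT86 locus overlaps its end, so reads there may be shared out between genes.

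**Figure D1:**
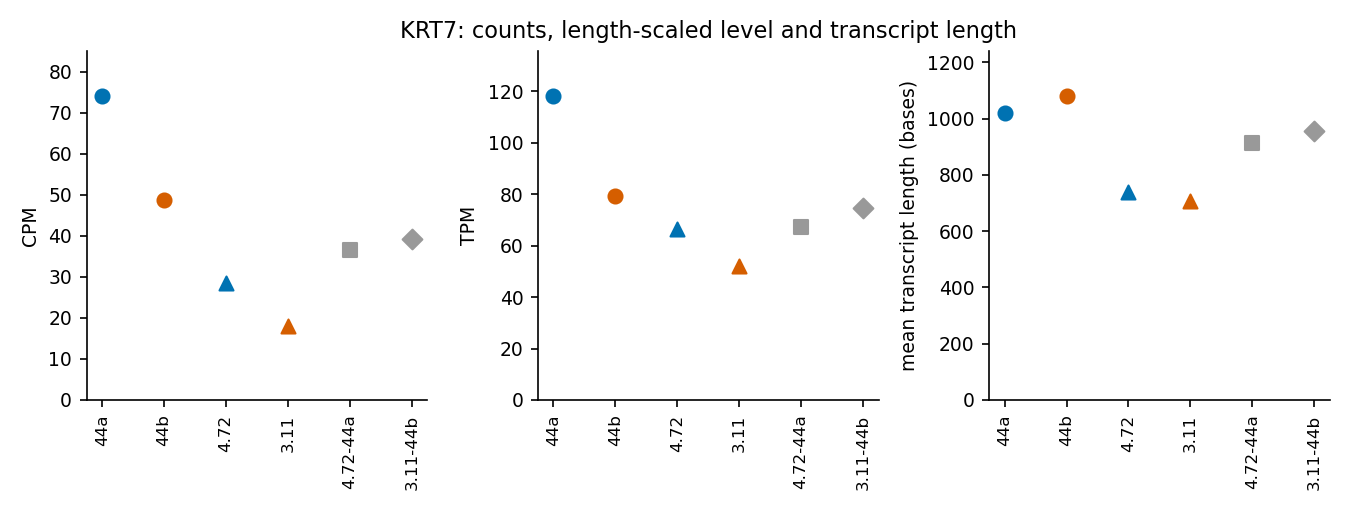
KRT7 in each of 6 libraries: normalised count (CPM, left), TPM (middle) and abundance-weighted mean transcript length in bases (right). Blue is WT/WT, orange WT/C134W, circles 44a and 44b, triangles 4.72 and 3.11, grey the joined names; both triangles lie below both circles in all 3 panels, with lengths of 738 and 708 against 1021 and 1079 bases.

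KRT19 (ENSG00000171345, chromosome 17, 41523617 to 41528308, minus strand), the smallest type I keratin, ran the other way at a low level. It had 0 counts in 44a and 2 in 44b, against 57 in 4.72 and 102 in 3.11, which is 1.63 and 3.13 TPM. Counts were at least 20.7-fold lower in 44a than in 4.72 after normalisation, with 3 counts per library as the floor. KRT15, its neighbour 1088 bases away and also a type I keratin, had 4.3 and 4.68 TPM in 44a and 44b against 4.1 in 4.72 and 13 in 3.11.

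Of the basal keratin pair, KRT14 had high counts in 44a and 44b and KRT5 had at most 5 counts. KRT14 (ENSG00000186847, chromosome 17, 41582279 to 41586921, minus strand) had 119 TPM in 44a and 65.7 in 44b, but 0.61 in 4.72 and 2.39 in 3.11. By clone pair that was 74.6 ± 36.6 against 1.4 ± 1.24 CPM (mean ± SD, n = 2), with no overlap. Within WT/WT, 44a stood 194 times above 4.72 in CPM, from 4429 and 21 counts, and within WT/C134W 44b stood 21.4 times above 3.11, from 2205 and 94 counts. By genotype the same values overlapped widely, at 59.6 ± 83.5 and 34 ± 44.7 TPM, and the log2 fold change was -0.98 ± 2.56. Its sign turned in 6 of 15 alternative fits, to 5.60 without 44a.

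KRT5 (ENSG00000186081, chromosome 12, 52514575 to 52520687, minus strand), the type II partner of KRT14, had 5 counts in 44b and 0 in the other 5 libraries. At 0 counts of 46613068 in 44a, up to 0.0644 CPM by library total is allowed, beside 100 CPM of KRT14 there after TMM scaling. KRT16, the type I keratin next to KRT14 on chromosome 17, had 253, 2, 0 and 74 counts in 44a, 4.72, 3.11 and 44b. KRT16 and KRT14 are near copies, so their counts are uncertain: of all runs of 50 bases in the coding transcripts of KRT14, 23.8% also occur in another gene and 11.2% in KRT16. KRT9, the neighbour on the other side, had 0 counts in each single clone.

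**Figure D2:**
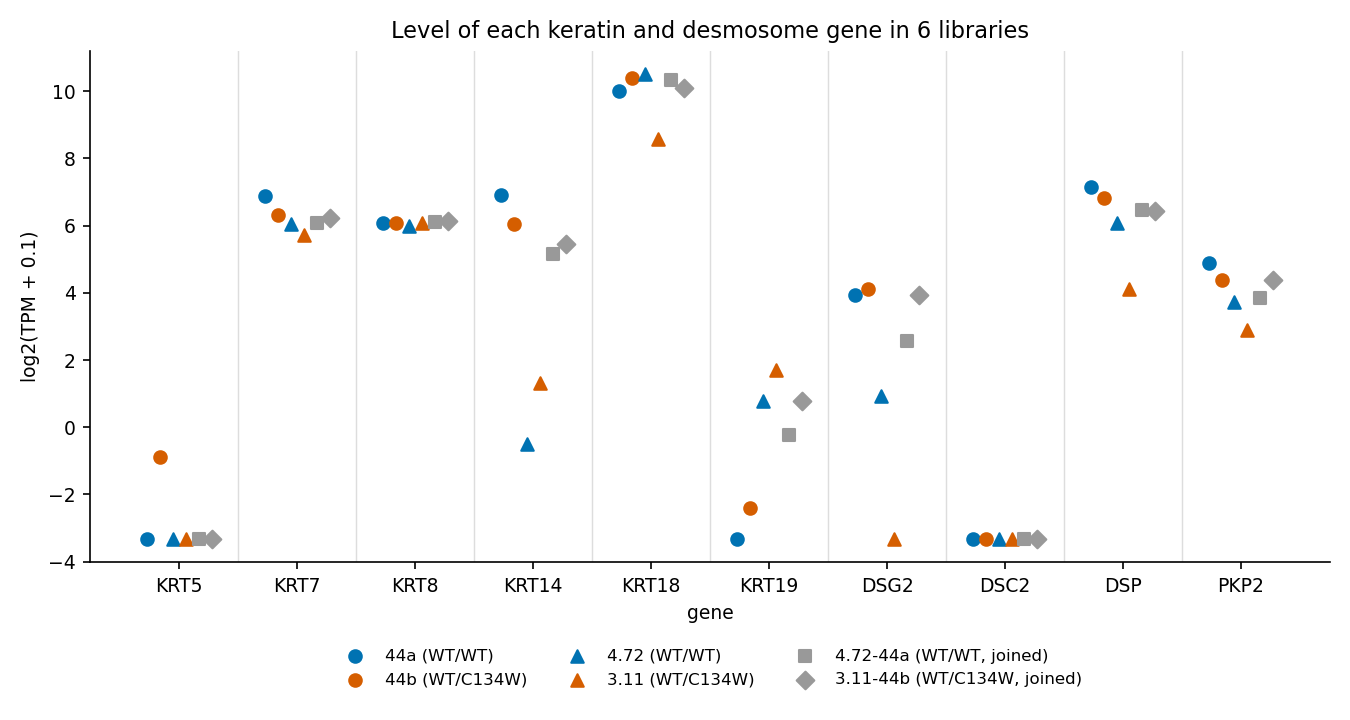
Level of the 10 genes as log2(TPM + 0.1) in 6 libraries, 1 point per library; blue is WT/WT, orange WT/C134W, circles 44a and 44b, triangles 4.72 and 3.11, grey the joined names. KRT14 is at 119 and 65.7 TPM in the circles and 0.61 and 2.39 in the triangles, KRT8 is level, and points at the bottom are libraries with 0 TPM.

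Both keratin types were summed to see how the filament partners balanced. Over 55 keratin genes (29 type I, 26 type II) the total was 1741 TPM in 44a, 1833 in 4.72, 723 in 3.11 and 2652 in 44b. KRT18 took 59%, 79.5%, 52.4% and 50.6% of it in these clones. The ratio of type I to type II transcripts was 2.34 in 44a, 4.78 in 4.72, 1.69 in 3.11 and 1.22 in 44b, above 1 in each. The 6 member keratins held 58.7% to 86.6% of keratin TPM in the single clones.

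Much of the type II total came from KRT81, a keratin of hair. It had 284 TPM in 44a, 110 in 4.72, 108 in 3.11 and 979 in 44b, and so stood above KRT8 and KRT7 in TPM in each of these 4 clones. KRT81 lies among near-identical hair keratins, KRT86 with it, and its counts can be shared out between them.

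**Figure D3:**
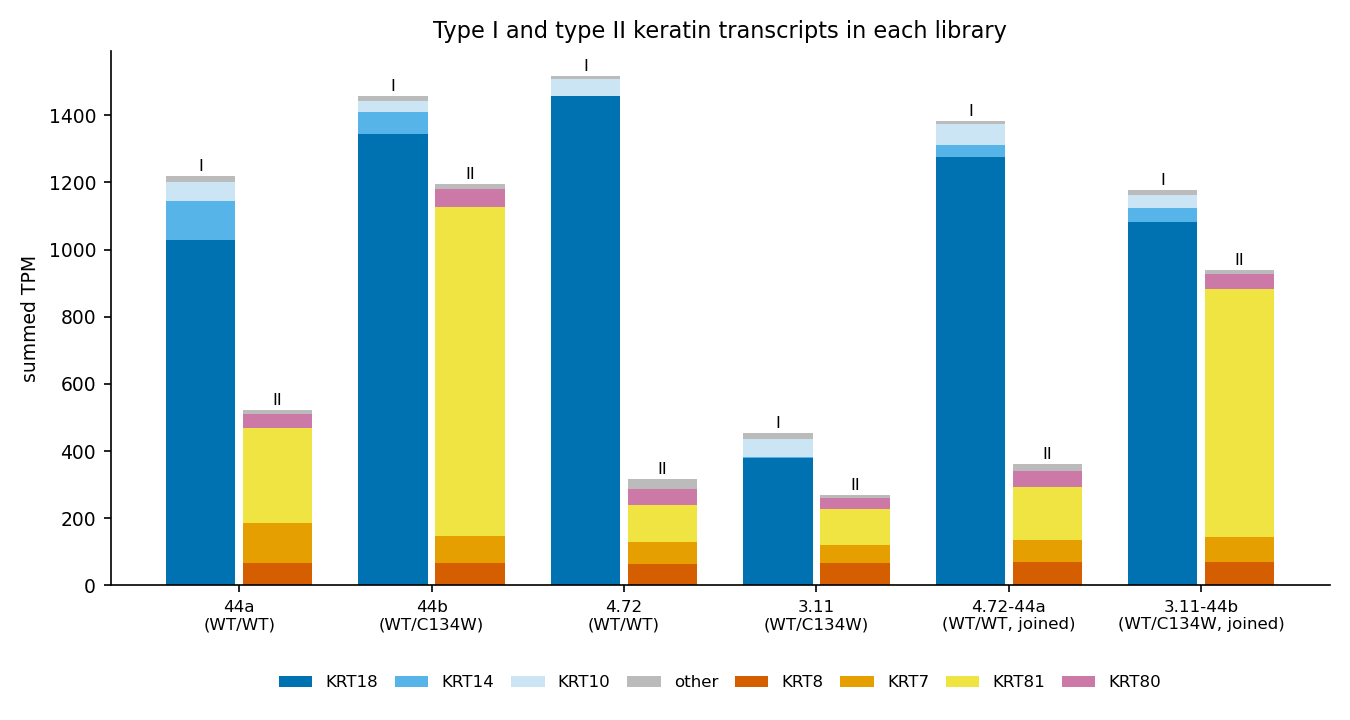
Summed TPM of type I (left bar, I) and type II (right bar, II) keratins in each of 6 libraries, with colours for the genes named in the key and grey for the rest. Type I exceeds type II in each library, by 4.78 times in 4.72 and 1.22 times in 44b, and KRT81 at 979 TPM fills most of the type II bar of 44b.

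Of the desmosomal cadherins, DSG2 alone had counts. DSG2 (ENSG00000046604, chromosome 18, 31498043 to 31549008, plus strand), the desmoglein of simple epithelia and heart, had 15.3 TPM in 44a and 17.3 in 44b, against 1.79 in 4.72 and 0 in 3.11. In counts this was 2790, 2978, 305 and 0. The value in 44b was at least 906-fold above 3.11 (3 counts per library as the floor), and 44a was 8.42-fold above 4.72. Genotype means were alike, 8.57 ± 9.59 TPM in WT/WT and 8.63 ± 12.2 in WT/C134W (mean ± SD, n = 2), each with 1 high and 1 low clone.

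DSC2 (ENSG00000134755, chromosome 18, 31058840 to 31102522, minus strand), the desmocollin usually found with DSG2, had 0 counts in all 6 libraries, which allows up to 0.0849 CPM by library total in the shallowest. DSC1, DSC3, DSG1, DSG3 and DSG4, the other desmosomal cadherins, also had 0 counts in all 6. DSG3 and TTR, the genes on either side of DSG2, had 0 counts too, so the counts of DSG2 in 44a and 44b were not shared by its neighbours. Of the runs of 50 bases in its coding transcripts, 0.831% occur in another gene.

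DSP (ENSG00000096696, chromosome 6, 7541575 to 7586717, plus strand), desmoplakin, was the most abundant of the desmosome genes. It had 143 TPM in 44a, 67.6 in 4.72, 17.3 in 3.11 and 112 in 44b. The clone pairs did not overlap, at 128 ± 22.4 against 42.5 ± 35.6 TPM (mean ± SD, n = 2), and the genotypes did, at 106 ± 53.6 against 64.6 ± 66.8. In CPM, 44a was 2.08 times above 4.72, and 44b was 6.8 times above 3.11. The log2 fold change of DSP between clone pairs was 1.55 ± 0.71 (SE). It was 0.83 without 3.11 and 3.03 without 4.72. No run of 50 bases of DSP occurs in another gene. The flanking genes RIOK1 and SNRNP48 had 16.6 to 26.9 and 4.36 to 9.53 TPM in the single clones, with SNRNP48 highest in 3.11, where DSP was lowest.

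PKP2 (ENSG00000057294, chromosome 12, 32790745 to 32896840, minus strand), plakophilin 2, binds desmoplakin in the plaque. It had 29.3 TPM in 44a, 13.2 in 4.72, 7.34 in 3.11 and 20.9 in 44b, the same order of clones as DSP. Pair means were 25.1 ± 5.98 and 10.3 ± 4.18 TPM (mean ± SD, n = 2). Set side by side in CPM, 44b was at 0.72 times 44a, and 3.11 was at 0.488 times 4.72, a pair the labels do not join. The same ratios were 0.718 and 0.219 for DSP, and 0.658 and 0.638 for KRT7. Between genotypes the log2 fold changes were -0.64 ± 0.62 for PKP2, -0.85 ± 1.04 for DSP and -0.61 ± 0.69 for KRT7, each smaller than or close to its SE.

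The other desmosome genes were read from a list of 9, of which 3 had counts enough to test. They did not belong to the chosen set. JUP, plakoglobin, had 10.6 CPM in 44a and 9.42 in 44b, against 2 in 4.72 and 2.35 in 3.11. PERP, a p53 target needed for desmosomes of stratified epithelia, had 56 and 73.3 CPM against 21.7 and 33.8. Both were higher in each 44 clone than in either other clone, with log2 fold changes of 2.20 ± 0.36 and 1.22 ± 0.28 (SE), and neither passed edgeR's quasi-likelihood test (adjusted p = 0.326 for JUP and 0.598 for PERP over all genes). PKP3 overlapped between the pairs at 0.71 ± 0.64. DESeq2 called JUP and PERP, of 207 genes it called among 16416, and 734 genes, 4.47%, had an unadjusted p under 0.05 in edgeR's test, these 2 among them.

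**Figure D4:**
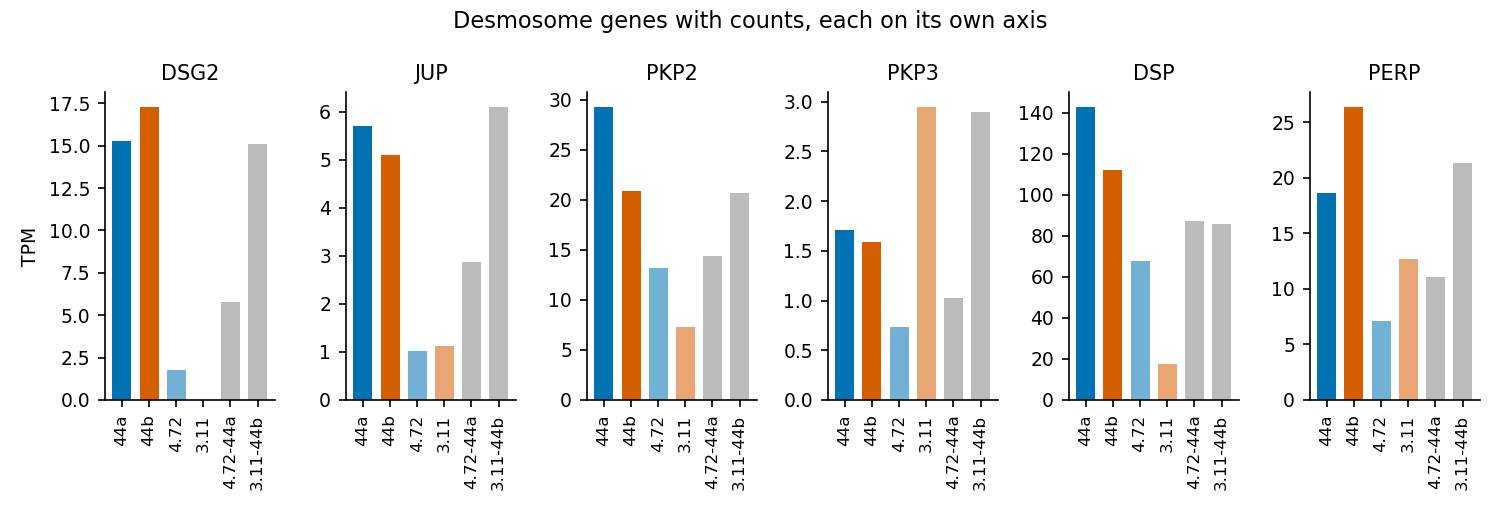
TPM of the 6 desmosome genes with counts, 1 bar per library and each gene on its own axis from 0; blue is WT/WT, orange WT/C134W, dark bars 44a and 44b, light bars 4.72 and 3.11, grey the joined names. DSP has 143 and 112 TPM in the dark bars, against 67.6 and 17.3 in the light bars. PKP3 is highest in 3.11 by TPM, at 2.95 against 1.59 in 44b, but by CPM it had 1.57 in 3.11 and 2.82 in 44b. DSG2, PKP2 and DSP were chosen by this contrast. The share of all genes whose clone pairs do not overlap is not given, so nothing is read from such a gap.

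Counts over all genes give the scale for these differences. Between genotypes edgeR's quasi-likelihood test called 0 of 16416 genes at a Benjamini-Hochberg adjusted p of 0.05, or 0%, while 1243 had an unadjusted p under 0.05, DESeq2 called 283 and limma voom 0. Between 44a and 44b and the other 2 clones it called 1 gene, 0.00609%, with 734 at an unadjusted p under 0.05, 207 by DESeq2 and 0 by limma voom. The 1 gene was IGF2BP1, an oncofetal RNA-binding protein, at 39.7 and 28.9 CPM against 0.0986 and 0.194, named after its values were seen. IGF2BP1 passed the low-count filter only through 44a and 44b. It therefore had to differ in that direction, and its adjusted p supports nothing. In the low-count filter 8 of the 10 genes passed and KRT5 and DSC2 did not. KRT19 and DSG2 passed through the clones where they were high.

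Ratios of at least 2-fold in CPM in the same direction, in both 44a over 4.72 and 44b over 3.11, were counted as a description. Of the 10 genes, 4 were higher in this way (KRT7, KRT14, DSG2 and DSP), and over all genes tested the share was 3.76%. KRT19 was the 1 lower, where the share was 2.94%. The choice of the genes used this contrast, so nothing is read from these counts. PKP2, at 1.95 and 2.88 times, fell just short.

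**Figure D5:**
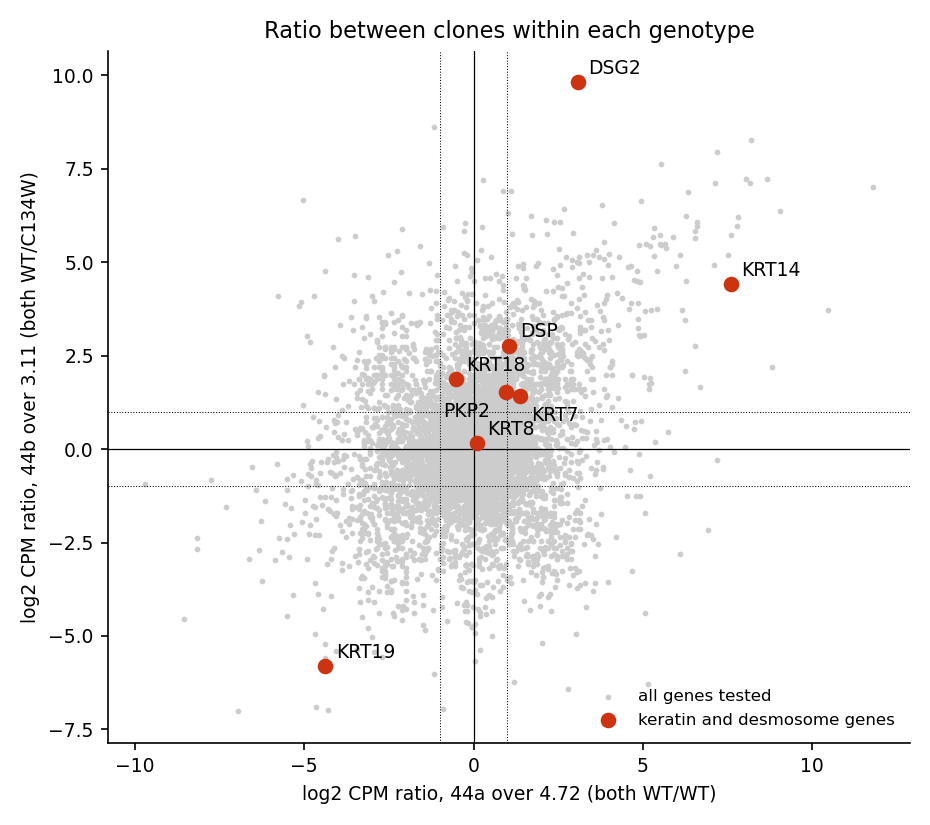
log2 CPM ratio of 44a over 4.72 (both WT/WT, x axis) against 44b over 3.11 (both WT/C134W, y axis); each grey dot is 1 of 16416 genes tested, red dots are 8 of the 10 genes, and dotted lines mark 2-fold. DSG2 (y) and KRT19 (x) are bounds set at 3 counts; KRT14 lies at 7.60 and 4.42, KRT8 near 0 on both axes and KRT18 at -0.53 and 1.88.

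Genes around the filament and the junction were then read from lists, by edgeR's test over all genes. Of 49 other keratins 37 had no counts in the single clones, 9 were tested and 0 were called in either comparison. KRT16, KRT34 and KRT81 had an unadjusted p under 0.05 between the clone pairs, all 3 higher in 44a and 44b, against 4.47% of all genes in either direction. DESeq2 called the same 3, of 207 it called among 16416. KRT16 passed the low-count filter only through 44a and 44b, so it had to differ in that direction and its p supports nothing. KRT34, a hair keratin, had 7.35 and 7.1 CPM in 44a and 44b against 0.838 and 0.823. Between genotypes KRT17 had an unadjusted p under 0.05 in edgeR's test, lower in WT/C134W, against 7.57% of all genes in either direction. The list median there was -0.42, against 0.01 over all genes, and DESeq2 called 0. The most abundant others were KRT81, KRT10, a keratin of suprabasal skin, at 34.8 to 55.4 TPM, KRT80 at 33 to 53.6 TPM and KRT86 at 8.58 to 29 TPM.

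Linkers of keratin filaments and hemidesmosome genes had log2 fold changes of both signs between the clone pairs. Of 13 tested 0 were called in either comparison, the median log2 fold change between clone pairs was -0.08, against -0.01 over all genes, and 6 of 13 were positive. CD151, a tetraspanin of hemidesmosomes, had 730 to 1027 TPM, and PLEC, plectin, 122 to 207 TPM. DST and MACF1, plakins that also bind other filaments, had 93.1 to 167 and 128 to 136 TPM. FAM83H, which binds keratin filaments, was the 1 gene with an unadjusted p under 0.05 between the clone pairs, and DESeq2 called it. Between genotypes PLEC and PPL had an unadjusted p under 0.05, against 7.57% of all genes, and DESeq2 called PPL.

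Other intermediate filaments were led by VIM, vimentin, the filament of mesenchymal cells, at 7008 to 7721 TPM in the single clones. It lay above KRT18 in each, and its log2 fold changes were -0.13 ± 0.21 between genotypes and 0.07 ± 0.35 between clone pairs. LMNA, LMNB2 and SYNC had 1177 to 1521, 87.2 to 169 and 75.4 to 104 TPM. Of the 9 tested 0 were called, and SYNM alone had an unadjusted p under 0.05 between clone pairs.

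Adherens and tight junction genes gave 0 calls by edgeR on the 4 single clones in either comparison, of 12 and 14 tested. With all 6 libraries edgeR called 3 adherens junction genes between genotypes. In the adherens junction list 0 genes had an unadjusted p under 0.05 between the clone pairs (median -0.02). Between genotypes 3 had one, CDH2, AJUBA and LIMA1, against 7.57% of all genes in either direction. All 3 were lower in WT/C134W (list median -0.27, against 0.01 over all genes). DESeq2 called AJUBA. CDH11, VCL, CTNNA1 and LIMA1 led that list at 204 to 348, 228 to 361, 194 to 227 and 161 to 213 TPM. In the tight junction list 0 genes had an unadjusted p under 0.05 in either comparison and DESeq2 called 0. TJP1, which anchors claudins to actin, had 34.7 to 43.4 TPM.

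Regulators of the epithelial state gave 0 calls of 7 tested, and those of the mesenchymal state 0 of 11, by edgeR in both comparisons on the 4 single clones. With all 6 libraries edgeR called 2 epithelial regulators between genotypes. KLF5 and TFAP2A, which can activate keratin genes, had an unadjusted p under 0.05 between genotypes, against 7.57% of all genes. KLF5 was at 16.5 TPM in 44a and 17.5 in 4.72, and 6.99 in 3.11 and 5.87 in 44b. Its log2 fold change was -1.21 ± 0.24 (adjusted p = 0.519 in edgeR's test), and DESeq2 called KLF5. Between the clone pairs 0 epithelial regulators had an unadjusted p under 0.05. KLF4 and SOX9 had 4.54 to 11.9 and 2.6 to 13.1 TPM. PRRX1, SNAI2, TWIST1 and TCF4, all mesenchymal, had 94.8 to 168, 86.5 to 118, 35 to 54.2 and 31.2 to 47.2 TPM, with PRRX1 and SOX4 at an unadjusted p under 0.05 between clone pairs and 0 called by DESeq2.

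Likeness of pattern was measured as the distance between log2 CPM profiles over the 4 single clones, each centred on its mean, among 11830 other protein-coding genes. The profiles share depth and scaling, and the distances are a description. From KRT7, PKP2 was the 10th nearest gene of all, at a distance of 0.33, and DSP ranked 1171. The rest of the set stood farther from KRT7, with KRT8 at rank 2635, KRT18 3293, KRT14 11743 and DSG2 11811. From DSP, PKP2 ranked 76, KRT7 129 and KRT18 187, but KRT8 ranked 3386, KRT14 11717 and DSG2 11736. So DSG2 and KRT14 were among the genes farthest from DSP and KRT7 by this distance. KRT8 and KRT18 were not near each other: from KRT18, KRT8 ranked 3619.

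The 3 genes nearest to each were PCDHGA10, CCIN and HOMER2 for KRT7, EPHB4, YWHAB and LRRC42 for KRT8, NMB, RAMP1 and AC114490.3 for KRT18, and CGREF1, MAGEE1 and HTATIP2 for KRT14. For DSG2 they were PLEK2, MEIS3 and ALS2CL, for DSP CHI3L1, PRDM11 and DGCR6, and for PKP2 CCDC85A, SLC19A2 and PTPRH. These were not equally close. The genes named for DSG2 lay at distances of 2.48 to 2.66 and those for KRT14 at 1.07 to 1.40, against 0.02 for KRT8 and 0.21 to 0.25 for DSP. Over all 6 libraries the same 3 genes stood nearest to KRT14 and to DSP, and 2 of 3 to DSG2. For KRT7, KRT18 and PKP2 only 1 of the 3 named genes was among the nearest 3 then, and for KRT8 0.

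The joined libraries gave values between the clones in their names for most of the genes. In 4.72-44a 7 genes lay between, KRT8 lay outside at 68.4 TPM, and KRT5 and DSC2 were at 0. In 3.11-44b also 7 lay between, KRT8 lay outside at 69.9 TPM, and KRT5 and DSC2 were at 0. KRT14 had 35.5 and 43.8 TPM in the 2 joined libraries, DSG2 5.77 and 15.1 TPM and DSP 87.2 and 85.8 TPM.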

How the data were processed

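RNA-seq gene tables of 6 KGN libraries were used. The authors deposited an expected count for each gene (an estimate that is not scaled) and TPM, which is scaled by length to a common sum, per the file headers. FPKM was deposited too and not used. The tables' mean transcript length is weighted by abundance, per the file headers. Tools listed in the submitters' processing notes, with no role, are RSEM 1.3.1, STAR 2.7.6a, DESeq2 1.26.0, Picard 2.8.1 and R 3.6.3. The build listed there, GRCm38, is of the mouse, although the IDs are human. The annotation and strand setting used for counting are unknown here. Names and positions came from GENCODE release 29 (58216 of 58336 IDs matched).

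The genes and lists were chosen with earlier results of these data known. Expected counts were rounded, filtered (filterByExpr), scaled by TMM and tested over all genes with edgeR 4.0.16 (glmQLFit, robust, and glmQLFTest; R 4.3.3) on the 4 single-clone libraries, at a Benjamini-Hochberg threshold of 0.05. CPM is TMM-normalised over 6 libraries, apart from the 0.0644 to 0.0849 CPM of 3 counts, which rests on library totals alone. Alternatives used DESeq2 1.42.0, limma 3.58.1 voom, limma on log2(TPM + 1) or log2(TPM + 0.1), other scalings and filters, all 6 libraries, a block and each clone left out. Fits were also run on simulated counts with the same dispersion for every gene, which cannot show how they perform at the spread between these clones. Named genes were all 10, the 4 most abundant of each list with at least 1 TPM and the 3 nearest in pattern. Likeness used log2(CPM + 0.1) for protein-coding genes whose mean reached 1 CPM.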

Additional observations from a re-analysis of the deposited data

Results flagged for a closer look

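In 3 genes the difference between genotypes had opposite signs in the 2 clone pairs, with 1 library on each side, so the difference was not tested. KRT14 had a log2 CPM ratio of -1.05 for 44b over 44a and 2.14 for 3.11 over 4.72. For KRT18 the same ratios were 0.25 and -2.15. For DSG2 they were 0.05 and, with 3 counts as the floor in 3.11, at most -6.70. KRT18 also had opposite signs between clones in the 2 genotypes, -0.53 for 44a over 4.72 and 1.88 for 44b over 3.11.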

How the results depend on the processing

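Between genotypes the count of called genes, 0, became 511 with all 6 libraries, 283 with DESeq2, 664 without the low-count filter and 5 with a replicate block of clone pairs. It stayed 0 under the other alternatives, each clone left out included. Between clone pairs the count of 1 became 207 with DESeq2, 33 with library totals alone, 448 without the filter, 2 with 10 CPM in at least 2 libraries and 38 with genotype as a replicate block. It became 0 with limma voom, with median-ratio size factors and in the 3 fits on TPM, and ranged from 0 to 4 with 1 clone left out. The cause was not tested. In the gene lists, all 0 in both comparisons, calls between genotypes with all 6 libraries were 3 adherens junction genes, 2 epithelial regulators and 1 keratin linker, and without the filter 1, 2 and 1 of these lists and 2 other keratins. Between clone pairs the unfiltered fit called 3 other keratins, 2 other desmosome genes, 2 keratin linkers, 1 epithelial and 1 mesenchymal regulator, and library totals and the replicate block called 1 keratin linker each. DESeq2's calls in the lists are given with each list. Of the 8 genes that passed the filter, 7 kept the sign of their log2 fold change between clone pairs in every alternative, KRT8 among them at only 0.05 to 0.20. KRT18 went from 0.31 to -0.41 without 3.11. Between genotypes 3 kept their sign, KRT18, DSP and PKP2, but without 3.11 these were -0.04, -0.04 and -0.07. Without 44b they were -1.92, -2.82 and -1.60. DSG2 ranged from -13.54 to 2.12 and KRT19 from -3.91 to 8.77 with 1 clone left out. The choice of the genes used both comparisons and the alternatives refit the same libraries, so nothing is read from these counts of signs.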
